A study of Mus musculus with 2 samples.

Results

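Pax genes encode transcription factors that bind DNA through the paired domain. The list of H3K27me3 regions in mouse rib chondrocytes named 8 of the 9 Pax genes, with 26 of its 2017 regions. Pax8 was the gene without a listed region. Members were the regions whose gene name, as the list gives it, is one of Pax1 to Pax9. The list names a gene when it lies within 5000 bp of a region. Pax2 had 7 regions, Pax3 and Pax7 had 5 each, Pax6 had 3, Pax1 and Pax9 had 2 each, and Pax4 and Pax5 had 1 each. Among 21900 protein-coding genes of RefSeq, 3.90% were named by a region (855 genes), so 8 of 9 is far above the share of all genes. Pax symbols were picked with earlier results of these data known, and no test was made of this count.

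H3K27me3 is histone H3 trimethylated on lysine 27, the mark that Polycomb repressive complex 2 (PRC2) places on silent chromatin. Developmental transcription factor genes are well-known carriers of it. By sequence the Pax proteins form 4 subgroups. Pax1 and Pax9 act in the sclerotome, the part of the somite that gives rise to vertebrae and ribs. Pax2, Pax5 and Pax8 act in kidney, midbrain, inner ear, thyroid and B cells, Pax3 and Pax7 in muscle progenitors and neural crest, and Pax4 and Pax6 in pancreas and eye.

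The chondrocytes came from the ribs of 11 wild-type CD1 mice at postnatal day 2.5, which were pooled and kept overnight in medium with 5% serum (by the labels) on 2 dishes of 10 cm. From this culture, 1 ChIP library was made with an antibody against H3K27me3, and 1 library of input DNA (2% of the chromatin without pull-down) gave the background. There were no replicates, so the errors given here are counting errors of these libraries, and other animals may differ. The list held 143822 ChIP tags and 19260 input tags in its 2017 regions, a tag being a mapped read, and how deep each library was sequenced overall is unknown. Of 10 chondrocyte marker genes, including Sox9, Col2a1 and Acan, 0 were named. Acta1 (3 regions) of 5 muscle markers and Col1a1 (1 region) of 3 perichondrial and fibroblast markers were named, and 0 of 3 blood and 0 of 3 endothelial markers. Only 3.90% of all protein-coding genes were named, so a count of 0 in lists this short does not differ from that share. The mark is not expression, and how much of it came from cells other than chondrocytes was not tested.

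The start sites nearest to a listed region were those of Pax9 and Pax1, and Pax8 had none, so the promoters of these 3 genes are shown. RefSeq (GRCm38.p6) gave 10 promoters for 7 of the 9 genes, each from 250 bases before to 50 after a start. Capitals mark the dinucleotide CG, which reads the same on both strands and is dense in the promoters that PRC2 often marks. The regions are on mm9, so these positions were not compared with theirs, and the RefSeq start need not be the start the list used.
Pax1, chr2:147364744-147365043, plus strand: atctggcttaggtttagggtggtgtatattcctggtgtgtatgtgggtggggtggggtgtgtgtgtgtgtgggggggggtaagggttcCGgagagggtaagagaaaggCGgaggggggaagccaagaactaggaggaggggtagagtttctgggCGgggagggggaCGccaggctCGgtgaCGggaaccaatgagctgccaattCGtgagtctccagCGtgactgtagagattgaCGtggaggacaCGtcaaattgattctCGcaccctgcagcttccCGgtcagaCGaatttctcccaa
Pax9, chr12:56695221-56695520, plus strand: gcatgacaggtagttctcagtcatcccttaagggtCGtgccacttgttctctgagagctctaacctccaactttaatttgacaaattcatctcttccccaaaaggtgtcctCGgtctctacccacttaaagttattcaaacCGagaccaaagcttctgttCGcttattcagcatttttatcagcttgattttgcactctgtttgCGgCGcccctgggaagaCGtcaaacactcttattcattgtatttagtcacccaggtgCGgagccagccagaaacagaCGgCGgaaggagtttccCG
Pax8, chr2:24475550-24475849, minus strand: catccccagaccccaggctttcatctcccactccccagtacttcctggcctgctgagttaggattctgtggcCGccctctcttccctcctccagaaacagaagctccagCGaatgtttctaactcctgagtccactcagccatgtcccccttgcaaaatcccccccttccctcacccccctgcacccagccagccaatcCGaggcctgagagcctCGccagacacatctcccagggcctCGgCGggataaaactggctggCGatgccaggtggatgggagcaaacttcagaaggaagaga
The Pax1 promoter held 13 CG, the Pax9 promoter 11 and the Pax8 promoter 7. The median of all 32851 RefSeq promoters was 7, and 94.6% of them held at least 1 CG. The other Pax promoters held from 7 to 30, with 23 at Pax5 and 17 at Pax7. Pax8 was thus at the median of all promoters, as was 1 of the 3 promoters of Pax2, a gene with 7 regions.

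The 26 Pax regions covered 37018 bp. They were 444 to 3026 bp long (median 1318 bp), against a median of 1066 bp for all regions. Each held 26 to 153 ChIP tags (median 69.5) and 0 to 20 input tags (median 9), where the medians of all regions were 56 and 7. Over all Pax regions, 1919 ChIP tags and 251 input tags gave 7.65 ChIP tags per input tag (95% Clopper-Pearson interval 6.70 to 8.76). The other 1991 regions had a ratio of 7.47 (7.35 to 7.58). The odds ratio between them was 1.02 (95% interval 0.897 to 1.17, two-sided Fisher's exact test, p = 0.763), a test of the tags of these libraries and not of chondrocytes in general. The direction turned with only regions that overlap their gene (odds ratio 0.959) and when regions whose input reached 2 times the caller's floor were dropped, a limit added after seeing the data (odds ratio 0.942). These ratios were not scaled for depth, and every listed region was called for its ChIP excess.

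The height of the ChIP profile, the highest point of the smoothed tag density in a region, was at least 8.0 in every listed region. In the Pax regions it ranged from 8.05 to 12.1 (median 8.66, against 8.68 for all regions). Only 4 of them reached a height of 10, which is 15.4%, and 13.1% of all regions did. These 4 regions lay at Pax7 (heights 12.1 and 10.7), Pax9 (11.6) and Pax1 (11.2), so 3 of 9 Pax genes kept a region at that height, where 0.708% of protein-coding genes did. Among genes named by any region, it was 3 of 8 Pax genes and 155 of 855 protein-coding genes. With 380 ChIP and 35 input tags, these 4 regions had a ratio of 10.9 (7.67 to 15.8), and the other 260 regions of this height had 5.88 (5.71 to 6.06). Here the odds ratio was 1.85 (two-sided Fisher's exact test, p = 0.000245). Both sets were kept for a high ChIP profile, and the test pooled tags over regions. Taken region by region, the median percentage of tags that came from the ChIP library was 91.6% for Pax and 89.5% for the other 260. When regions with input of at least 2 times the caller's floor were left out here too, the other 235 regions had a ratio of 8.39 (8.07 to 8.73), and the odds ratio was 1.29 (two-sided Fisher's exact test, p = 0.171).

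**Figure D1:**
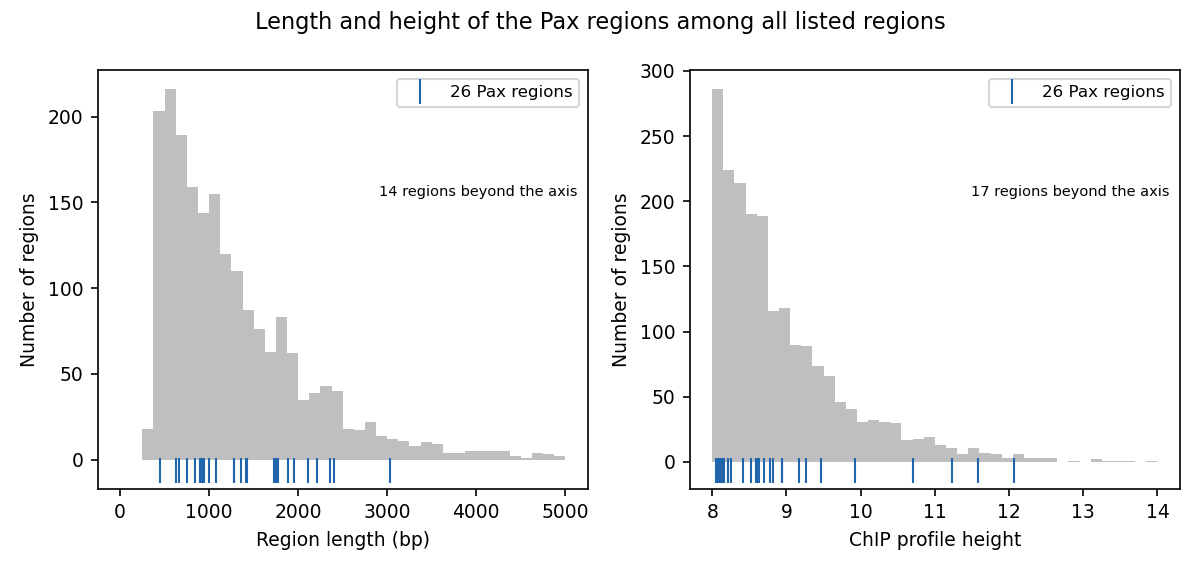
Length in bp (left) and ChIP profile height (right) of all 2017 listed regions (grey bars, number of regions per bin) with the 26 Pax regions as blue ticks. The Pax regions are spread over the bulk of both distributions, from 444 to 3026 bp and from 8.05 to 12.1 in height, and 14 and 17 other regions lie beyond the right ends of the axes.

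Seen from the gene, 22 of the 26 Pax regions (84.6%) overlapped the gene they named, and 4 (15.4%) lay upstream of its 5′ end. Of all 1535 pairs of a region and a named gene, 56.9% overlapped, 26.8% lay upstream and the rest downstream. An overlapping region was found at 7 of the 9 Pax genes, where 2.53% of protein-coding genes had such a region. Among genes named by any region, it was 7 of 8 Pax genes and 555 of 855 protein-coding genes. None of the 26 covered a 5′ end, and 6.06% of all pairs did. Distances here are to the single 5′ end per gene that the list used, and RefSeq gave multiple starts for Pax2 and Pax6. Within 2500 bp of a 5′ end lay 6 regions of 5 Pax genes (23.1% of the Pax regions, 40.7% of all pairs), where 2.20% of protein-coding genes had such a region. Of the 855 named protein-coding genes, 481 had one, and of the 8 named Pax genes 5. More than 10000 bp inside the gene lay 14 regions (53.8%, against 22.5% of all pairs beyond that distance). The median distance to the 5′ end was 10738 bp, compared with 3413 bp over all pairs. Long genes offer more room for distant regions, and the part of gene length in this difference was not tested. No annotation of mm9 was used here, so exons and introns were not told apart.

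**Figure D2:**
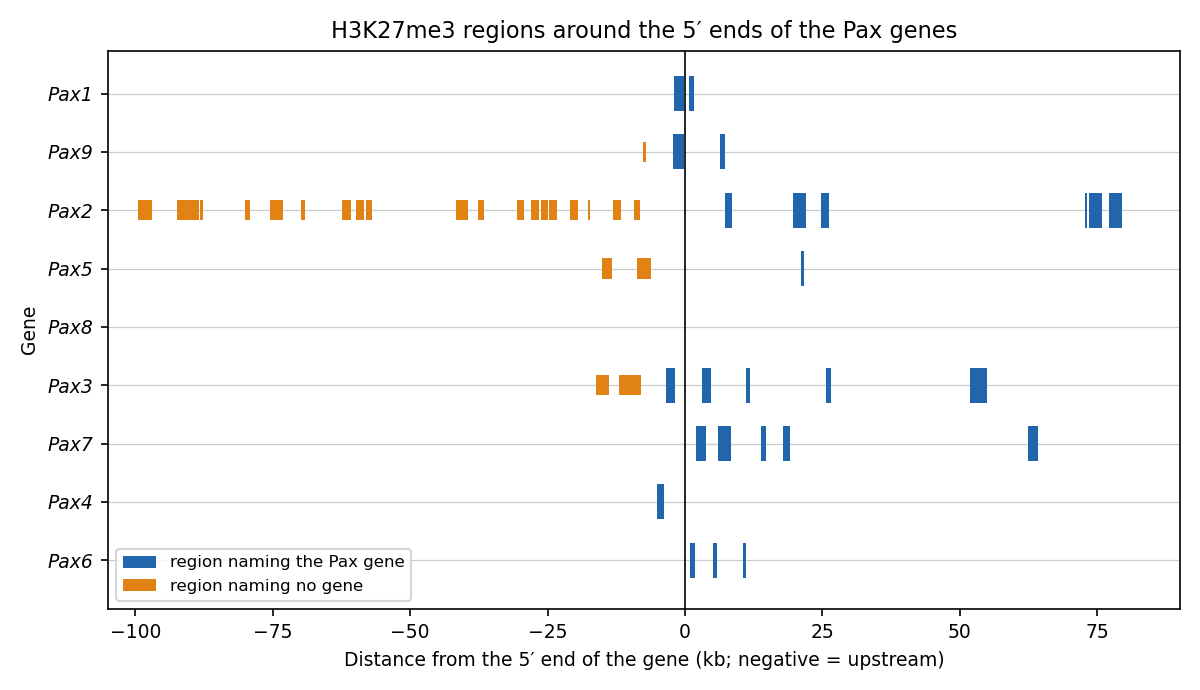
Listed H3K27me3 regions along each Pax gene, as distance in kb from the 5′ end (negative values are upstream). Blue bars are the 26 regions that name the gene, and orange bars are 25 regions that name no gene within 100000 bp of the 5′ end, which were not searched for at Pax4 and Pax8. No bar crosses the 5′ end, and upstream of Pax2 there are 19 orange bars.

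In the sclerotome subgroup, both Pax1 and Pax9 had a region that ended just short of the 5′ end and another inside the gene. At Pax1 (chromosome 2, mm9, positions as the list gives them), the region from 147188723 to 147190474 ended 256 bp upstream and held 101 ChIP tags and 9 input tags. Its ratio was 11.2 (5.68 to 25.2). The region from 147191438 to 147192379 began 708 bp inside the gene and held 55 and 15 tags, a ratio of 3.67 (2.04 to 6.99). ChIP tags per kb were alike in both, at 57.7 and 58.4, whereas input tags per kb were 5.14 and 15.9. The ratios of the pair differed before correction (two-sided Fisher's exact test, p = 0.0136) but not after adjustment over 22 such tests (adjusted p = 0.229). The ratio of Pax1 as a whole, 6.50 (4.21 to 10.5), therefore fell to 3.67 without its upstream region.

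Pax9 on chromosome 12 had the region nearest to a 5′ end in the family, from 57794393 to 57796501, which ended 125 bp upstream. It held 97 ChIP tags and 12 input tags (ratio 8.08, 4.42 to 16.2). The second region, from 57802898 to 57803979, began 6272 bp inside the gene and held 64 and 6 tags (10.7, 4.64 to 30.1). The upstream region was longer, and the inner one had the higher profile, at 11.6 compared with 8.42. A further region of 34 ChIP tags and 5 input tags ended 7055 bp upstream and named no gene. The neighbouring gene Nkx2-9, a homeobox gene, had 3 regions with 30, 76 and 72 ChIP tags.

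In the subgroup of Pax2, Pax5 and Pax8, Pax2 stood out by its number of regions. Pax2, a regulator of kidney and midbrain development, had 7 regions on chromosome 19, all of them inside the gene, and only 3 of the 922 named genes had more (Cdh22, Skap1 and Nav2, with 10, 9 and 8). The regions that began 7193, 19711 and 24766 bp from the 5′ end held 85, 111 and 75 ChIP tags, with 9, 20 and 14 input tags. A second group of 4 regions lay between 44904568 and 44911372, from 72684 bp to 79488 bp inside the gene. In order along the gene these held 26, 52, 69 and 112 ChIP tags and 0, 10, 10 and 16 input tags. No region was listed between these groups. Summed over the gene the tags were 530 and 79, and the ratio 6.71 (5.29 to 8.61).

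The largest set of regions near a Pax gene was not named for it. Upstream of Pax2, from 8166 to 96969 bp before its 5′ end at 44831884, lay 19 regions that named no gene, as the list gives a name only within 5000 bp. Other RefSeq starts of Pax2 were not placed on mm9, so the nearest of these regions may lie inside the gene by another start. The 19 regions covered 28185 bp, against 10156 bp in the regions that named Pax2. Together they held 1488 and 167 tags of ChIP and input, with a ratio of 8.91 (7.59 to 10.5). The richest of them, at 44739507 to 44743372, had 194 ChIP and 21 input tags, more ChIP tags than any region that named a Pax gene. There were 0 input tags in 2 of them, which had 46 and 64 ChIP tags. The odds ratio of the named against the unnamed regions was 0.753 (two-sided Fisher's exact test, p = 0.0568). The neighbouring protein-coding genes in RefSeq were Hif1an and Slf2, and neither was named by any region.

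Pax5, which maintains the identity of B cells, had 1 short region 21027 bp inside the gene, on chromosome 4 from 44701653 to 44702285. Its ratio was 18.5 (37 ChIP and 2 input tags), with a wide interval of 4.77 to 158. Upstream of the gene, 3 regions without a gene name ended 6165, 7157 and 13280 bp from the 5′ end. They held 60, 86 and 87 ChIP tags and 10, 9 and 9 input tags, so each had more ChIP tags than the named region. The strand of Pax5 was taken from RefSeq, since a single region does not give it. For Pax8, a regulator of thyroid and kidney development, no region was named. The fewest ChIP tags in any listed region were 20 and the lowest height was 8.0, so a weaker mark at Pax8 was not detectable. Regions more than 5000 bp from Pax8 would not name it, and its flanks were not searched.

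In the subgroup of Pax3 and Pax7, which mark muscle progenitors, regions were spread over more than 50 kb of each gene. Pax3 on chromosome 1 had the longest Pax region and the one with the most tags, from 78138862 to 78141888, which was 51823 bp inside the gene and held 153 ChIP tags and 19 input tags. More ChIP tags than in it were rare, as 94.1% of all regions held fewer. Its region upstream of the 5′ end, from 78195451 to 78197185, ended 1740 bp away and held 81 and 4 tags, a ratio of 20.2 (7.61 to 76.1). The other 3 regions, at 3034, 11015 and 25629 bp inside the gene, held 97, 39 and 46 ChIP tags and 19, 4 and 4 input tags. Over the gene the ratio was 8.32 (6.19 to 11.4). Farther upstream, at 8096 and 13879 bp, lay 2 regions without a gene name, with 218 and 110 ChIP tags and 20 and 14 input tags. The first of these held more ChIP tags than any named Pax region.

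Pax7 on chromosome 4 had 5 regions, all inside the gene, and the highest profile of the family. The region from 139384994 to 139386876 began 2007 bp from the 5′ end and had 100 ChIP and 14 input tags at a height of 12.1, above 98.1% of all regions. The next, from 139380523 to 139382878, began 6005 bp from the 5′ end and held 115 and 6 tags, a ratio of 19.2 (8.54 to 53.3). At 13778, 17779 and 62341 bp, the remaining regions held 55, 61 and 86 ChIP tags and 6, 5 and 13 input tags. Height was thus above 10 in the first 2 regions of the gene and 8.21 to 9.47 in the others. The ratio over the gene was 9.48 (6.94 to 13.2), and no unnamed region lay within 100000 bp of the 5′ end.

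In the subgroup of Pax4 and Pax6, there were 4 regions in all. Pax4, a factor of endocrine pancreas development, had 1 region on chromosome 6 from 28403232 to 28404512, which ended 3892 bp upstream of the 5′ end. With 70 ChIP and 13 input tags its ratio was 5.38 (2.95 to 10.6). Without the 5000 bp window it would not have been named, since it did not overlap the gene. Pax6, a regulator of eye, brain and pancreas development, had 3 regions on chromosome 2, which began 889, 4993 and 10461 bp inside the gene. They held 46, 46 and 40 ChIP tags and 8, 4 and 9 input tags, all below the median of 56 ChIP tags per region. The ratio over the gene was 6.29 (3.95 to 10.5). The antisense transcript Pax6os1 was named by 2 further regions, with 51 and 54 ChIP tags and 2 and 10 input tags.

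**Figure D3:**
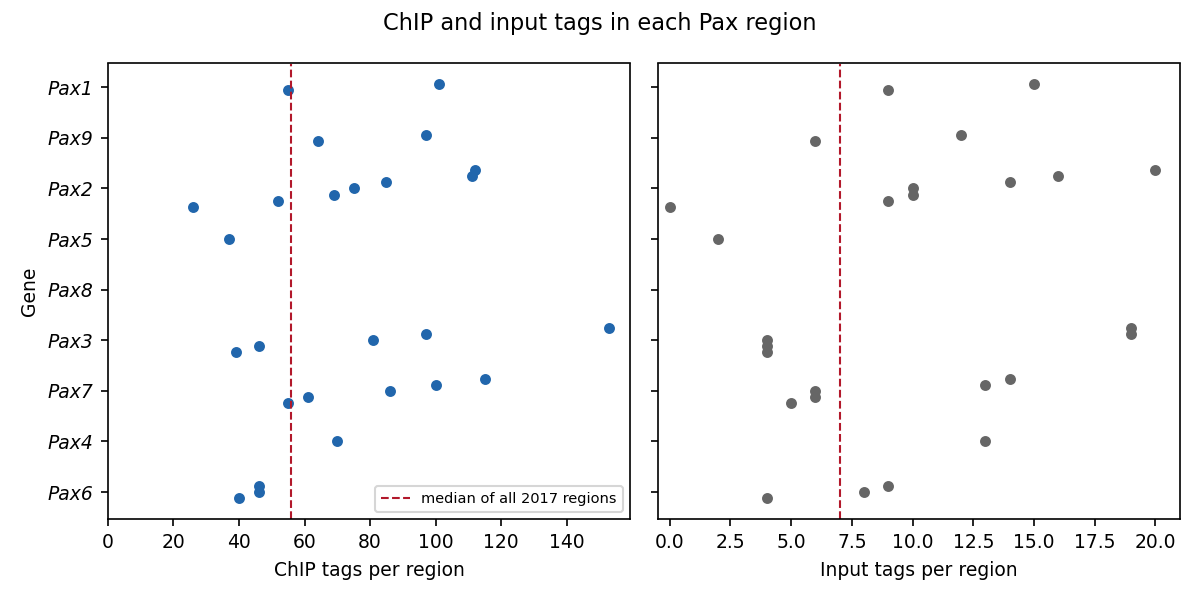
ChIP tags (left, blue) and input tags (right, grey) in each of the 26 Pax regions, 1 point per region, with points of a gene spread vertically in order of their value in each panel. The dashed red line is the median of all 2017 regions (56 ChIP and 7 input tags), and Pax6 and Pax5 have all their ChIP points to its left.

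Compared with each other, the Pax genes did not differ in their ratio of ChIP to input tags beyond counting error. The ratios ran from 5.38 at Pax4 to 18.5 at Pax5, whose interval overlapped that of every other gene. In order from the lowest they were Pax4, Pax6, Pax1, Pax2, Pax3, Pax9, Pax7 and Pax5, and the intervals of neighbours in this order overlapped. With the deposited ratio, which has a floor on input, the gene medians lay between 4.97 and 6.35, Pax1 was lowest, and Pax5 fell from 18.5 to 6.35. Of the 28 pairs, 0 passed an adjusted p of 0.05 (two-sided Fisher's exact test with Benjamini-Hochberg adjustment) and 0 had an unadjusted p below that. The lowest unadjusted p was that of Pax2 and Pax7, with an odds ratio of 0.708 (two-sided Fisher's exact test, p = 0.0996, adjusted p = 0.612). Such a result does not show that the ratios were equal. Within genes, 4 of 22 tests of a region against the rest of its gene had an unadjusted p below 0.05 and 0 an adjusted one (two-sided Fisher's exact test), with Pax1 and Pax9, which have 2 regions, tested once each. By subgroup the ratio was 8.86 (7.15 to 11.1) for Pax3 and Pax7, 7.55 (5.46 to 10.7) for Pax1 and Pax9, 7.0 (5.54 to 8.95) for Pax2 and Pax5, and 5.94 (4.12 to 8.82) for Pax4 and Pax6.

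**Figure D4:**
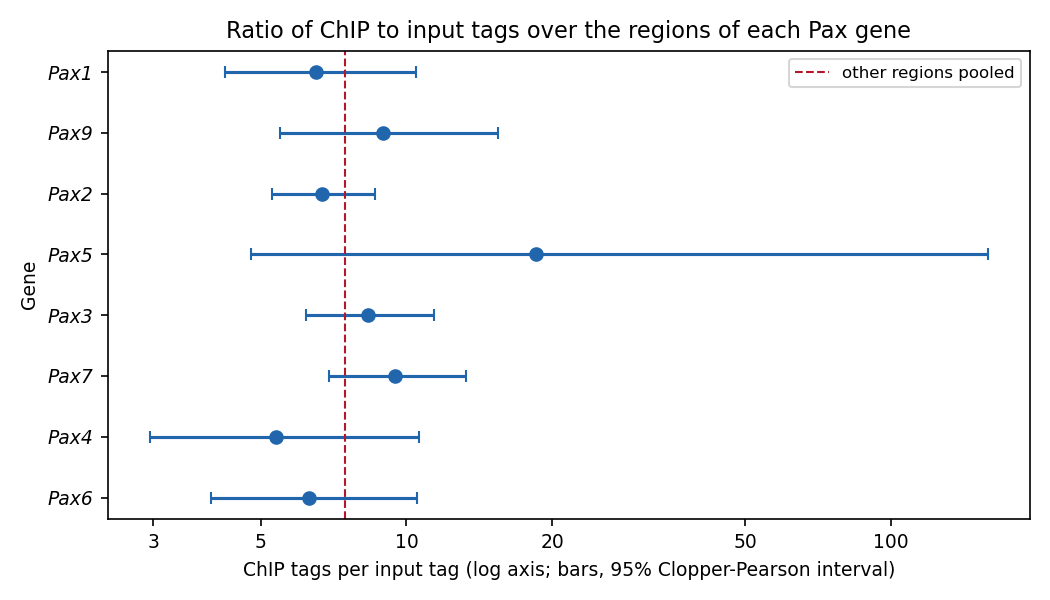
ChIP tags per input tag over all regions of each Pax gene (points) with 95% Clopper-Pearson intervals (bars) on a log axis. The dashed line is the ratio of 7.47 of the other 1991 regions, which lies within every interval.

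Against 2 families of developmental transcription factors, the Pax family had a similar ratio and number of regions per gene. All 8 Lhx genes, LIM homeobox factors of limb and neural development, were named, as were 8 of 13 Tbx genes, the T-box factors. Named Pax genes had 3.25 regions each, named Lhx genes 3.12 and named Tbx genes 2.62. The ratio was 7.73 (6.82 to 8.79) for Lhx genes and 7.50 (6.50 to 8.70) for Tbx genes. The odds ratio of Pax against Lhx genes was 0.989 (0.821 to 1.19) and against Tbx genes 1.02 (0.835 to 1.24), each with an adjusted p of 0.926 over 2 comparisons (two-sided Fisher's exact test). A region covered a 5′ end in 1 of 25 pairs for Lhx, 1 of 21 for Tbx and 0 of 26 for Pax. With 6.06% of all pairs over a 5′ end, counts this small do not set the families apart. Of the Pax regions 22 of 26 overlapped their gene, compared with 16 of 25 pairs for Lhx and 13 of 21 for Tbx.

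Genes that work with Pax factors or downstream of them were also counted. Of 58 such genes in 6 lists, 25 were named (43.1%, against 3.90% of all protein-coding genes). The lists were chosen with earlier results of these data known, and no test was made of this count. Many of the named genes encode developmental transcription factors, and Lhx1 and Tbx18 also belong to the Lhx and Tbx families above. Whether the share is particular to genes that work with Pax factors was not tested. Among genes of midbrain, kidney and thyroid, where Pax2, Pax5 and Pax8 act, 9 of 12 were named. They were led by Lhx1 with 416 ChIP and 41 input tags, Wnt1 with 288 and 39, En2 with 199 and 39, and En1 with 182 and 8. Of 12 genes of eye and pancreas, where Pax6 and Pax4 act, 8 were named, led by Vax2 with 696 and 71 tags and Nkx2-2 with 267 and 36. Of the 11 genes of the list with Six2 to Six6, Eya1 to Eya4, Dach1 and Dach2, 4 were named, led by Six3 with 493 and 53 tags, and Eya2 was the only Eya gene.

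Of 12 genes of sclerotome and somite, the tissue in which Pax1 and Pax9 act, 3 were named (25%, against 3.90% of all protein-coding genes), and differences between lists were not tested. They were Tbx18 (64 ChIP and 10 input tags), Uncx (51 and 1) and Meox1 (26 and 3), each with 1 region and none within 2500 bp of the 5′ end. Sox9, which drives chondrocyte differentiation, and Nkx3-2, a sclerotome target of Pax1 and Pax9, were not named. Of 6 muscle genes only Lbx1 was named, with 66 ChIP and 18 input tags, and Myf5 and Myod1, genes that act downstream of Pax3 and Pax7, were not. Of 5 B cell genes, from the lineage in which Pax5 acts, 0 were named. With 3.90% of all protein-coding genes named, counts in the short muscle and B cell lists do not set them apart. A gene that was not named may carry the mark below the height the list required.

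**Figure D5:**
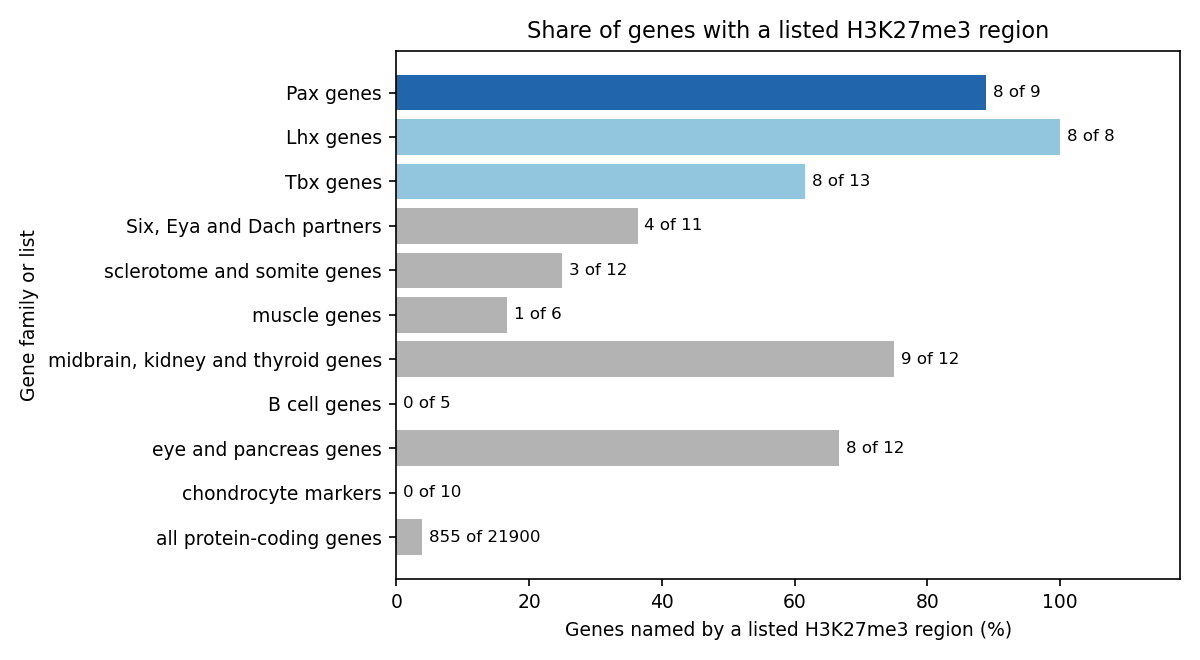
Share (%) of genes named by at least 1 listed H3K27me3 region, for the Pax family (dark blue), the 2 families compared with it (light blue), and the lists of related genes, chondrocyte markers and all protein-coding genes of RefSeq (grey), with counts at the bar ends. The Pax bar reaches 88.9%, and that of all protein-coding genes 3.90%.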

How the data were processed

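Reads of 1 ChIP and 1 input library were mapped to mm9 with the DNA Nexus mapper and regions called with QuEST by the authors, with versions and settings not given in the sources used here. The authors' deposited list gives tag counts per region (whole numbers, not normalized), the ratio of ChIP to input tags with a floor of 9.21 input tags per kb (found from the values, used in 20 of the 26 Pax regions), the signal height of the smoothed profile, and −log10 of the q-value. Positions are as listed, with the counting base (0 or 1) unknown.

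From the list, ChIP tags were divided by measured input tags, with exact 95% Clopper-Pearson intervals, which treat tags as independent and cover counting error only. Two-sided Fisher's exact tests compared tags between genes and sets. They were tried on simulated tags drawn independently at a fixed ChIP share per gene, as the tests assume. That simulation held no spread between regions and no selection by ChIP height, so it cannot show how the tests behave with them. The tests of regions within a gene were added after seeing the data. The 5′ ends were solved from the listed distances. Of 922 gene names 912 matched RefSeq (GRCm38.p6), some through synonyms, and this table gave names, promoters and neighbours. All 9 Pax genes were named in the text, with up to 4 listed genes per list and the genes with most regions. The neighbours, the cell markers and the unlisted genes Sox9, Nkx3-2, Myf5 and Myod1 were named after their values were seen. Some genes of the lists and families are not reported here. Members and lists were chosen with earlier results of these data known. Alternatives were to keep regions that overlap their gene or lie up to 2500 bp from its 5′ end, a height of at least 10, a q-value of at most 0.01, merging within 3000 bp, the deposited ratio, and leaving out the region with the most tags. The software was scipy 1.17.1 for tests, pandas 2.3.3 and numpy 2.4.6 for tables and matplotlib 3.10.9 for plots, under Python 3.11.15.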

Additional observations from a re-analysis of the deposited data

How the results depend on the processing

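Of 69 recomputed values, 47 stayed within 1.5 times the count, within the 95% interval, or in their direction and on their side of the threshold, among them all those at a q-value of at most 0.01, which left out no region. With only regions overlapping the gene, Pax4 was lost, the related genes fell from 25 to 11 and Pax1 had a ratio of 3.67. Up to 2500 bp from the 5′ end, 5 Pax genes, 6 regions, 9310 bp and 14 related genes were left, and Pax3 had a ratio of 20.2. With a height of at least 10, there were 3 Pax genes, 4 regions, 7069 bp and 6 related genes, and the ratio of Pax1 was 11.2. The pooled ratio rose to 10.9 and passed the threshold (Fisher's exact test, p = 0.000245), with tags pooled over regions picked by ChIP height. These settings keep fewer regions by construction, and the share of all protein-coding genes named fell too. It went from 3.90% to 2.53% with overlap, 2.20% up to 2500 bp and 0.708% at a height of at least 10. The median deposited ratio, with its input floor, was 5.41 over the Pax regions, 5.46 at Pax3, 5.30 at Pax7 and 6.35 at Pax5, and 5.70 over the other regions. Without its region with the most tags, Pax1 had 3.67. Chosen after seeing the data, counting unnamed regions within 100000 bp of a 5′ end gave 51 regions and 76224 bp, with a pooled ratio of 8.25 (Fisher's exact test against the other regions, p = 0.0348). With input below 2 times the floor in addition, that p was 0.734, and for the named Pax regions of height 10 or more the same limit gave 0.171. The pooled comparison, which passed no threshold, turned direction in 2 settings. With only overlapping regions the ratio was 7.37 (odds ratio 0.959, Fisher's exact test, p = 0.573), and with input below 2 times the floor it was 7.65 against 8.12 for the others (odds ratio 0.942, Fisher's exact test, p = 0.369). Single Pax genes could not be recomputed where a limit left them no region. No paired analysis was possible because there is 1 library of each kind. Tags per region, a median of 69.5 ChIP and 9 input tags, limit the precision.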

Other observations

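Regions that name no gene were also grouped into runs, in which consecutive regions lie within 20000 bp of each other, a rule chosen after seeing the data. The 733 unnamed regions fell into 435 runs, of which 312 held a single region. The run upstream of Pax2 was the second by number, with 20 regions over 94521 bp, 1519 ChIP tags and 173 input tags. The largest run lay on chromosome 9 from 60826582 to 61020293 (mm9), with 29 regions, 2389 ChIP tags and 301 input tags. The next run, on chromosome 2 from 77797258 to 77864873, had 13 regions and 2.58 ChIP tags per input tag. This was the lowest ratio of the 10 largest runs. The run upstream of Pax2 had 8.78, the largest run 7.94, and the remaining runs of these 10 had 7.23 to 11.2.

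Promoters of genes that the list named held a median of 16 CG (837 RefSeq promoters), and those of genes it did not name a median of 7 (32014 promoters). The 10 Pax promoters, of 7 genes, had a median of 16.5. They include that of Pax8, which no region named, and multiple promoters of Pax2 and Pax6. None was given for Pax3 and Pax4, which the list named. The CG numbers are counts over promoters of 1 genome, and no test was made.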
